A study of Mus musculus with 3 samples.

Results

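Krüppel-like factors (KLF) other than Klf2 were followed in single cells of the mouse blastocyst. The 10 genes Klf3, Klf4, Klf5, Klf6, Klf7, Klf9, Klf10, Klf13, Klf16 and Klf17 were taken by name from the 23154 genes of the count tables, which list 17 Klf genes in all. All cells came from embryos of the Klf2-H2B-mCherry line, which reports Klf2 by a red fluorescent histone, and were taken at embryonic day 3.5 (E3.5) after culture from embryonic day 2.5. Per the labels, embryos were kept in static and in shaking culture and only mCherry-positive embryos were used, but the labels do not tie a cell to a culture condition, an embryo, a sex or a strain. The 3 libraries of 96 cell barcodes each therefore form 1 group, called replicates 1 to 3, and the comparison that the data allow is between cell classes within these libraries. The labels do not state that these libraries stem from different cultures or animals, and p-values cover no more than the spread among the libraries, which may be technical. Whether the reporter allele alters Klf2 itself is not stated either.

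KLF proteins bind CACCC boxes and related GC-rich sites in promoters through zinc fingers at their C-terminal end, and differ in the N-terminal part, which recruits either activators or repressors. Klf2, Klf4, Klf5, Klf6 and Klf7 are mostly known as activators, Klf3 as a repressor that binds the corepressor CtBP, and Klf9, Klf10, Klf13 and Klf16 as factors that recruit SIN3A. In the early mouse embryo Klf2, Klf4 and Klf5 support the naive pluripotent state of the inner cell mass (ICM), and Klf5 is also needed for a normal trophectoderm (TE), the outer epithelium of the blastocyst that builds the placenta.

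Barcodes with at least 2000 genes with a count were treated as cells, which retained 83, 64 and 78 barcodes of replicates 1, 2 and 3 (225 of 288). Library totals were 30573711, 27610866 and 54444536 counts, with median totals per cell of 286484, 345414 and 608734. Ribosomal protein genes took 4.72% of the counts in replicate 2, against 14.7% and 14.5% in replicates 1 and 3. The same 96 barcode numbers recur in the 3 libraries, which per the labels carry an index of their own. Clustering on TE, ICM, epiblast (EPI) and primitive endoderm (PrE) markers, none of them a Klf gene, gave 78 ICM-like cells (26, 22 and 30 in replicates 1, 2 and 3) and 57 TE-like cells (20, 13 and 24). Summed levels of the 19 TE markers were 7694 ± 1354 CPM (counts per 1000000 counts of the class; SD, n = 3 libraries) for TE-like and 613.7 ± 68.0 for ICM-like cells, and those of the 5 ICM markers were 352.5 ± 63.6 and 1205 ± 136. The EPI markers (227 to 774 CPM in TE-like, 699 to 1019 in ICM-like cells) and the PrE markers (869 to 3747 and 741 to 1650) overlapped between the classes, and Sox2, an epiblast regulator, and Lcp1, a TE marker, were listed at 0 in both. Another 54 cells with intermediate TE markers, cluster 3, and 36 cells of cluster 4 stayed unnamed. The median total of a cluster 4 cell was 0.279 of the median of its library, but this low depth held in replicates 2 and 3, where no such cell exceeded the library median, and not in replicate 1, where 9 of 20 did. Markers of blood (at most 0.749 CPM) and fibroblasts (at most 0.82 CPM) were near 0 in ICM-like and TE-like cells, while cumulus markers reached 180.2 CPM, oocyte markers 56.2 CPM and oviduct markers 25.8 CPM in single libraries. Barcode number went with the classes: barcodes 1 to 32 held 39 of the 57 TE-like cells, barcodes 33 to 64 held 28 of the 36 cells of cluster 4, and barcodes 65 to 96 held 35 of the 54 cells of cluster 3, whereas ICM-like cells were spread evenly (25, 27 and 26). No label explains the barcode positions, and their part in the comparisons with clusters 3 and 4 was not tested.

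Cells of 1 class and library were added up, and these sums were compared between TE-like and ICM-like cells by the quasi-likelihood test of edgeR, in a model that holds the library as a block. Adjusted p-values are by the Benjamini-Hochberg method over all genes of a comparison. All 10 KLF genes passed the filter on low counts. Klf6 was the only one called, at an adjusted p under 0.05, and it was higher in TE-like cells. Of all 11924 genes tested, 2.97% were called, 2.11% as higher and 0.855% as lower in TE-like cells. At an unadjusted p under 0.05, 5 of the 10 passed (Klf4, Klf5, Klf6, Klf10 and Klf13), as did 17.2% of all genes. The median log2 fold change of the 10 was 0.84, against -0.04 for all genes. Ordered by library values, every TE-like library lay above every ICM-like library for 3 of the 10 (Klf5, Klf6 and Klf16), a pattern found in 5.8% of all genes tested.

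**Figure D1:**
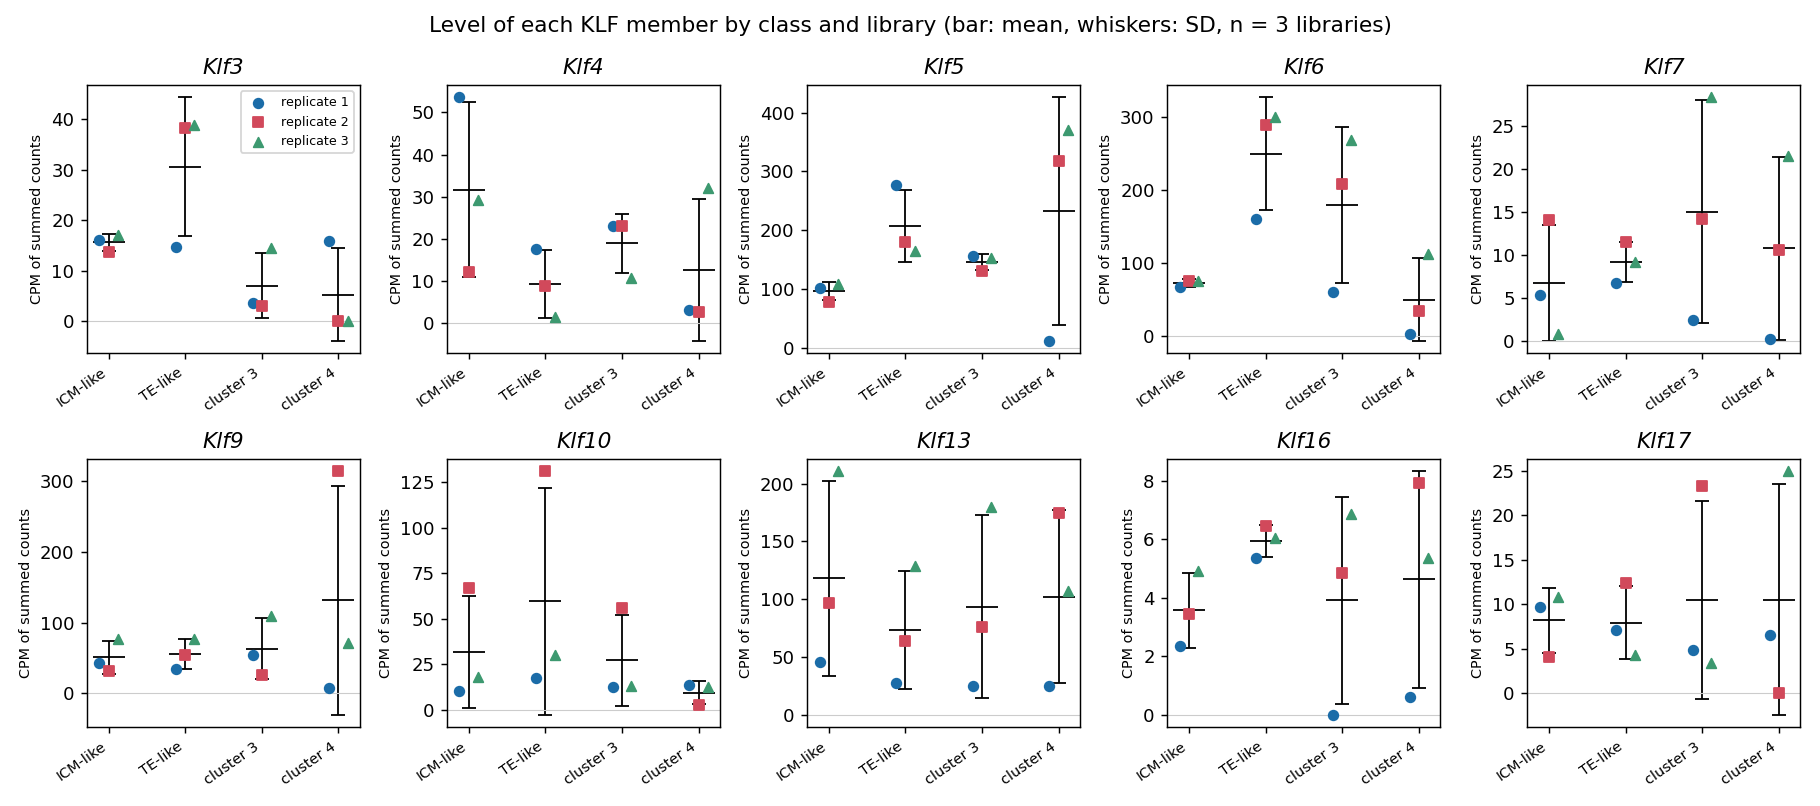
Level of each of the 10 KLF genes as CPM of summed counts (vertical axis, linear and separate for each gene) in 4 classes of cells (horizontal axis). Points are libraries, horizontal bars are means and whiskers are SD over 3 libraries. In Klf6 the 3 TE-like points (160.4 to 299.5 CPM) lie above the 3 ICM-like points (67.1 to 76.1 CPM), while in Klf10 and Klf13 the libraries differ more than the classes do.

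Klf6, an immediate-early type activator that was first isolated from placenta, lies on chromosome 13 (mm10, 5861482 to 5870394, plus strand, GENCODE M21), and its longest transcript has 4 exons and 4225 bases. Klf6 was at 67.1, 76.1 and 75.1 CPM in the ICM-like class (replicates 1, 2 and 3) and at 160.4, 288 and 299.5 CPM in the TE-like class. The lowest TE-like library was thus above the highest ICM-like one, and the ICM-like libraries lay close together. TE-like cells held 3.39 times the Klf6 level of ICM-like cells (log2 difference 1.76 with an SE of 0.26; edgeR adjusted p = 0.0168), in 3 of 3 libraries. The call was lost without replicate 2 (adjusted p = 0.11, edgeR) or replicate 3 (0.269), and in a fit without the library block (0.406). Over 15 alternative settings the log2 fold change ranged from 1.56 to 1.97 and adjusted p from 1.09e-07 to 0.406. Within barcodes 1 to 32 alone, which hold most TE-like cells, the log2 fold change was 1.83 (edgeR, adjusted p = 0.0204). That fit was not among the planned settings, and its ICM-like sum of replicate 3 came from 5 cells.

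The share of cells with a Klf6 count is given without a test. After each cell was thinned to 50000 counts, which left out 23 shallower cells, 98.3% ± 3.04 (SD, n = 3 libraries) of TE-like and 60.0% ± 13.2 of ICM-like cells had a Klf6 count. Unthinned shares were 98.3% ± 2.89 and 72.4% ± 18.2. The cell with the most Klf6 counts gave 13.6% to 18.9% of the Klf6 counts of the TE-like cells of a library, so no single cell carried the level. Of 6 sets of 32 neighbouring barcodes that held at least 2 cells of each class, Klf6 was higher in TE-like cells in 5, with log2 differences from -0.27 to 2.65.

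KLF proteins can act on genes of their own family. The 250 bases upstream of the RefSeq start (GRCm38.p6, the mm10 assembly) are shown for Klf6 and for Klf4, which among the 10 genes have the largest fitted fold change in each direction. Both windows are read 5′ to 3′ on the strand of the gene, and capitals mark matches to the CACCC box or the GC box GGGCGG on either strand.
Klf6, chr13:5861239-5861488 (+): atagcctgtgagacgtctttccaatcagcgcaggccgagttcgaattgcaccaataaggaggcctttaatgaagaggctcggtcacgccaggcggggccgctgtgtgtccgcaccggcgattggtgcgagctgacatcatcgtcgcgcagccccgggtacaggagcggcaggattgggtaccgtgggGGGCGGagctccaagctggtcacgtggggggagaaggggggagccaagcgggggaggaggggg
Klf4, chr4:55532476-55532725 (-): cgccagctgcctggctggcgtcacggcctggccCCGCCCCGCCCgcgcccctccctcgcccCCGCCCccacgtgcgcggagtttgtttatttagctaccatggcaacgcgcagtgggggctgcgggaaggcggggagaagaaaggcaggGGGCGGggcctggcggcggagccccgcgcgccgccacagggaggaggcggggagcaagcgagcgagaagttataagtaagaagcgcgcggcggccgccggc
The Klf6 window held 1 GGGCGG match and no CACCC match, with 64.8% GC. The Klf4 window held 4 GGGCGG matches, none of CACCC, and 74% GC. Of 32851 RefSeq promoter windows of the same length, 32.7% held GGGCGG and 52.0% held CACCC, with a median GC content of 52.4%. RefSeq windows were found for 7 of the 10 genes, and among the others Klf3 held 5 CACCC and 6 GGGCGG matches and Klf13 1 and 3. A CACCC match and a GGGCGG match can share bases, and a match describes letters only.

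Klf5, a factor needed in both early lineages, was at 102, 78.3 and 107.6 CPM in the ICM-like class (replicates 1, 2 and 3) and at 277.3, 179.2 and 164.6 CPM in the TE-like class. The libraries did not overlap. The gene (chromosome 14, 99298691 to 99315036, plus strand) held a 2.17-fold higher level in TE-like cells but did not pass the threshold (log2 difference 1.12 with an SE of 0.25; edgeR adjusted p = 0.0676). Under the alternatives the adjusted p ranged from 0.00337 to 0.746, and 5 of 15 settings called it, DESeq2 among them. Detection was near complete in TE-like cells, at 98.6% ± 2.41 of thinned cells (SD, n = 3 libraries), against 86.1% ± 3.47 of ICM-like cells. In all 6 barcode sets Klf5 was higher in TE-like cells, with log2 differences from 0.17 to 2.51. Within barcodes 1 to 32 alone the log2 fold change of Klf5 was 0.65 (edgeR, adjusted p = 0.264), the lowest of its 15 alternatives. That fit was not among the planned settings.

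Klf4, a pluripotency factor used in reprogramming to stem cells, had its lower values in TE-like cells. Its ICM-like levels were 53.6, 12.3 and 29.1 CPM in replicates 1, 2 and 3, and its TE-like levels 17.6, 8.85 and 1.42 CPM. Within every library the TE-like level of Klf4 was the lower one, yet the classes overlapped, since TE-like cells of replicate 1 lay above ICM-like cells of replicate 2. The fitted level was 4.08-fold lower in TE-like cells (log2 difference -2.03 with an SE of 0.78; edgeR adjusted p = 0.242), which did not pass. Without replicate 3 the log2 fold change was -1.04 (edgeR, adjusted p = 0.625), and over 15 alternatives the adjusted p ranged from 0.031 (DESeq2) to 0.782. The 32 Klf4 counts in TE-like cells of replicate 3 came from 3 of 24 cells, 1 of which gave 71.9% of them. Klf4 was detected in 49.2% ± 13.8 (SD, n = 3 libraries) of thinned ICM-like and 15.7% ± 15.8 of thinned TE-like cells, against 66.6% ± 12.3 and 33.7% ± 19.2 unthinned. Klf4 (chromosome 4, 55527143 to 55532466, minus strand) was higher in ICM-like cells in all 6 barcode sets.

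**Figure D2:**
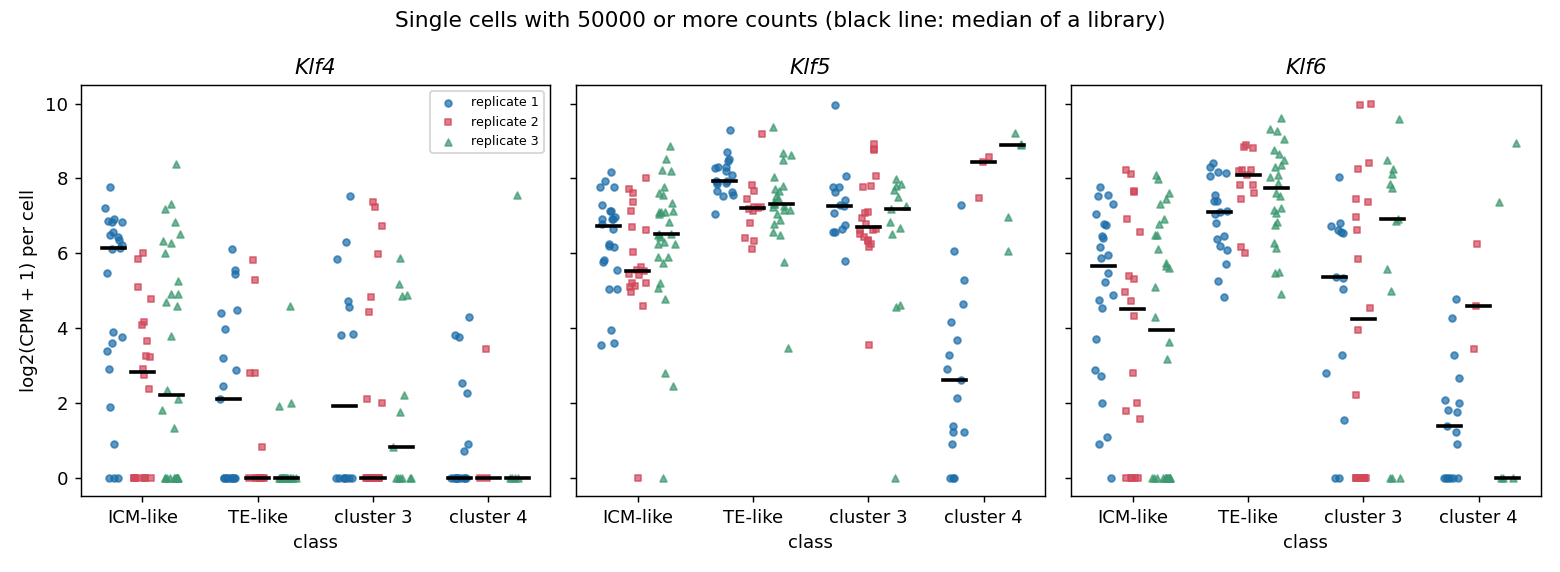
Klf4, Klf5 and Klf6 in single cells with 50000 or more counts, as log2(CPM + 1) (vertical axis), by class (horizontal axis) and library (colour and marker). Each point is 1 cell and each black line the median of a library. Nearly all TE-like cells hold Klf5 and Klf6, whereas Klf4 is at 0 in many TE-like cells and ICM-like cells range from 0 to high levels of Klf4 and Klf6.

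Klf2, the gene that carries the reporter, is given as the reference of the family. Its levels were 282.9, 610.2 and 375.3 CPM in ICM-like and 117.8, 109.5 and 68.5 CPM in the TE-like class (replicates 1, 2 and 3). Every TE-like library lay below every ICM-like one (log2 difference -2.04 with an SE of 0.30; edgeR adjusted p = 0.0172), and the call was lost without replicate 2 or 3, or without the block.

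Klf7 (chromosome 1, 64029447 to 64122282, minus strand), a relative of Klf6 known from neurons, was at 5.35, 14.04 and 0.723 CPM in ICM-like and 6.74, 11.5 and 9.15 CPM in the TE-like class (replicates 1, 2 and 3). These levels overlapped and rested on few cells, since 1 cell gave 74.7% of the Klf7 counts of TE-like cells in replicate 2. The fit gave a log2 fold change of 1.11 with an SE of 1.03 (edgeR adjusted p = 0.645), and 0.02 without replicate 3. Exons of Klf7 overlap those of Gm13748 and Gm26649 on the opposite strand, and exons of Klf3 those of Gm20033. Whether the counting used strand is not stated, so reads of these pairs cannot be told apart.

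Klf3 (chromosome 5, 64803388 to 64832901, plus strand), the CtBP-bound repressor of the family, was at 16.1, 13.7 and 17.1 CPM in ICM-like and 14.7, 38.3 and 38.8 CPM in the TE-like class (replicates 1, 2 and 3). TE-like cells of replicates 2 and 3 were high, and those of replicate 1 lay among the ICM-like values. The log2 fold change of 0.89 (SE 0.48) did not pass (edgeR adjusted p = 0.398). A single cell held 66.4% of the Klf3 counts of ICM-like cells in replicate 2.

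Among the SIN3A-recruiting members, Klf13 (chromosome 7, 63886351 to 63938915, minus strand), described as a transcription factor of lymphocytes, showed the same order of libraries in both classes. It was at 45.7, 97.1 and 211 CPM in ICM-like and 27.5, 63.8 and 128.8 CPM in the TE-like class (replicates 1, 2 and 3). TE-like cells were lower within each library, but the libraries spanned a wider range than the classes, and replicate 1 was low in cluster 3 as well. The difference did not pass (log2 difference -0.65 with an SE of 0.26; edgeR adjusted p = 0.254). Klf13 was detected in 88.6% ± 8.83 of thinned ICM-like and 91.2% ± 15.2 of thinned TE-like cells (SD, n = 3 libraries).

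Klf10 (chromosome 15, 38291463 to 38300706, minus strand), known as a gene induced early by TGF beta, was at 10.4, 66.9 and 18.3 CPM in ICM-like and 17.9, 131 and 30.0 CPM in the TE-like class (replicates 1, 2 and 3). Replicate 2 stood highest in both classes and in cluster 3 (55.8 CPM, against 12.4 and 13.4), and it is also the library with the low ribosomal protein share. Whether that share plays a part in the level was not tested. TE-like cells were higher in 3 of 3 libraries without passing the threshold (log2 difference 0.86 with an SE of 0.31; edgeR adjusted p = 0.218).

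Klf9 (chromosome 19, 23141226 to 23168134, plus strand), a regulator linked to progesterone and glucocorticoid responses, overlapped between the classes. Its levels were 42.8, 31.8 and 77.1 CPM in ICM-like and 34.6, 54.0 and 77.4 CPM in the TE-like class (replicates 1, 2 and 3) (log2 difference 0.19 with an SE of 0.33; edgeR adjusted p = 0.827). Replicate 3 was the highest in both. The sign turned to -0.05 without replicate 2 and to -0.15 with limma on mean CPM of cells.

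Over all thinned cells, Klf16 and Klf17 were counted in the fewest, at 12.1% ± 3.46 and 18.9% ± 3.25 (SD, n = 3 libraries). Klf16 (chromosome 10, 80567124 to 80577321, minus strand), a member of the SIN3A-recruiting branch, was at 2.35, 3.44 and 4.92 CPM in ICM-like and 5.37, 6.44 and 6.04 CPM in the TE-like class (replicates 1, 2 and 3), with 94.1% of its counts in TE-like cells of replicate 2 in 1 cell. Its libraries did not overlap, but after thinning its share of cells was 14.2% in both classes (log2 difference 0.82 with an SE of 0.82; edgeR adjusted p = 0.670). Klf17 (chromosome 4, 117757836 to 117765648, minus strand), known from germ cells and early embryos, was at 9.74, 4.03 and 10.9 CPM in ICM-like and 7.12, 12.4 and 4.31 CPM in TE-like cells, with no common direction (log2 difference -0.06 with an SE of 0.82; edgeR adjusted p = 0.983). Its sign turned without replicate 1 (0.15) or 3 (0.58).

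**Figure D3:**
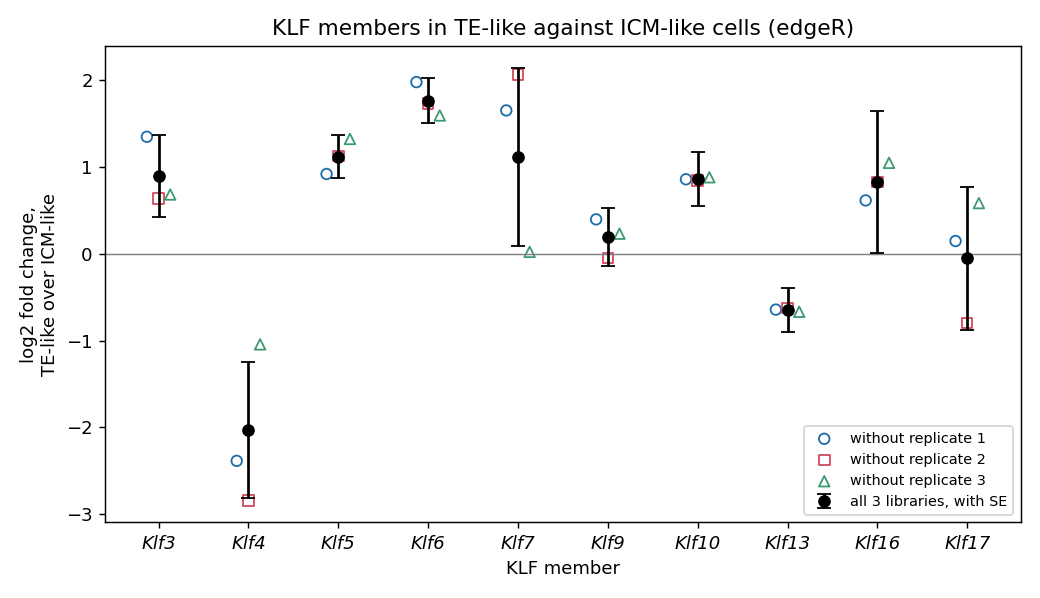
Fitted log2 fold change of TE-like over ICM-like cells (vertical axis) for the 10 KLF genes (horizontal axis). Black points with SE use all 3 libraries, and open symbols leave out 1 library each. Klf3, Klf5, Klf6, Klf10 and Klf16 stay above 0 and Klf4 and Klf13 below 0 in every such fit, while the open symbols of Klf9 and Klf17 fall on both sides of 0 and that of Klf7 without replicate 3 is at 0.02.

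Cells of cluster 3, whose summed TE markers lay between those of the named classes (2311 ± 906 CPM; SD, n = 3 libraries), were compared with each class after the data had been seen. Klf6 was at 61, 207.7 and 268 CPM in cluster 3 of replicates 1, 2 and 3. Replicate 1 lay below its ICM-like level, and replicates 2 and 3 lay between the ICM-like and TE-like levels of their own library. These sums rested on few cells, since the top cell gave 36.8%, 35.5% and 38.4% of the Klf6 counts in replicates 1, 2 and 3. The median cell of cluster 3 was at 31.9, 25.4 and 120.3 CPM, and these medians kept the same places relative to those of the named classes. Klf5 was at 155.7, 129.8 and 152.3 CPM, between the levels of the named classes in each library. Klf4 was at 23.1, 23.0 and 10.8 CPM, between the named classes in replicates 1 and 3 and above both in replicate 2. Klf3 was at 3.64, 2.99 and 14.4 CPM, which in each library was below its level in either named class. The order of mean levels was TE-like, cluster 3 and ICM-like for Klf5 and Klf6, ICM-like, cluster 3 and TE-like for Klf4, and TE-like, ICM-like and cluster 3 for Klf3.

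None of the 10 was called between cluster 3 and ICM-like cells (edgeR, Benjamini-Hochberg), where 0.239% of 11712 genes were called. At an unadjusted p under 0.05, 2 of the 10 passed, Klf6 (log2 fold change 1.14, SE 0.37, adjusted p = 0.350) and Klf5 (0.68, SE 0.21, adjusted p = 0.333), as did 10.0% of all genes. Without replicate 1, the library where cluster 3 held less Klf6 than ICM-like cells, Klf6 was called (log2 fold change 1.66). More genes were called over all in that fit too, against 28 with all libraries. Since the library with the contrary direction was left out, this call describes the other libraries only. Against TE-like cells none of the 10 was called by edgeR either, with 1.57% of 11421 genes called. Here 4 of the 10 passed at an unadjusted p under 0.05 (Klf3, Klf4, Klf6 and Klf10), as did 14.6% of all genes. The fitted log2 fold changes of cluster 3 over TE-like cells were -2.29 (SE 0.61) for Klf3, 1.60 (SE 0.66) for Klf4 and -0.60 (SE 0.24) for Klf6. No other tool was run on these pairs. By library values, Klf5 in cluster 3 lay above every ICM-like and below every TE-like library, and Klf3 lay below every TE-like library. Libraries of cluster 3 were thus all above the ICM-like ones for 1 of the 10 genes (2.1% of all genes tested) and all below the TE-like ones for 2 of the 10 (5% of all genes). None of the 10 lay below every ICM-like library (4.58% of all genes) or above every TE-like library (3%).

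Within cluster 3, cells with higher TE markers also held more Klf6. Spearman's rho between Klf6 and the mean log2 level of the 19 TE markers was 0.45, 0.47 and 0.60 in replicates 1, 2 and 3 (14, 20 and 13 cells), and that of Klf7 was 0.49, 0.33 and 0.38. Within TE-like cells the same rho for Klf6 averaged 0.06, and within ICM-like cells 0.01. Over all cells Klf6 was also higher in cells with a higher total count (mean rho 0.32), and cells of a library share its preparation, so these values describe the cells and carry no test.

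**Figure D4:**
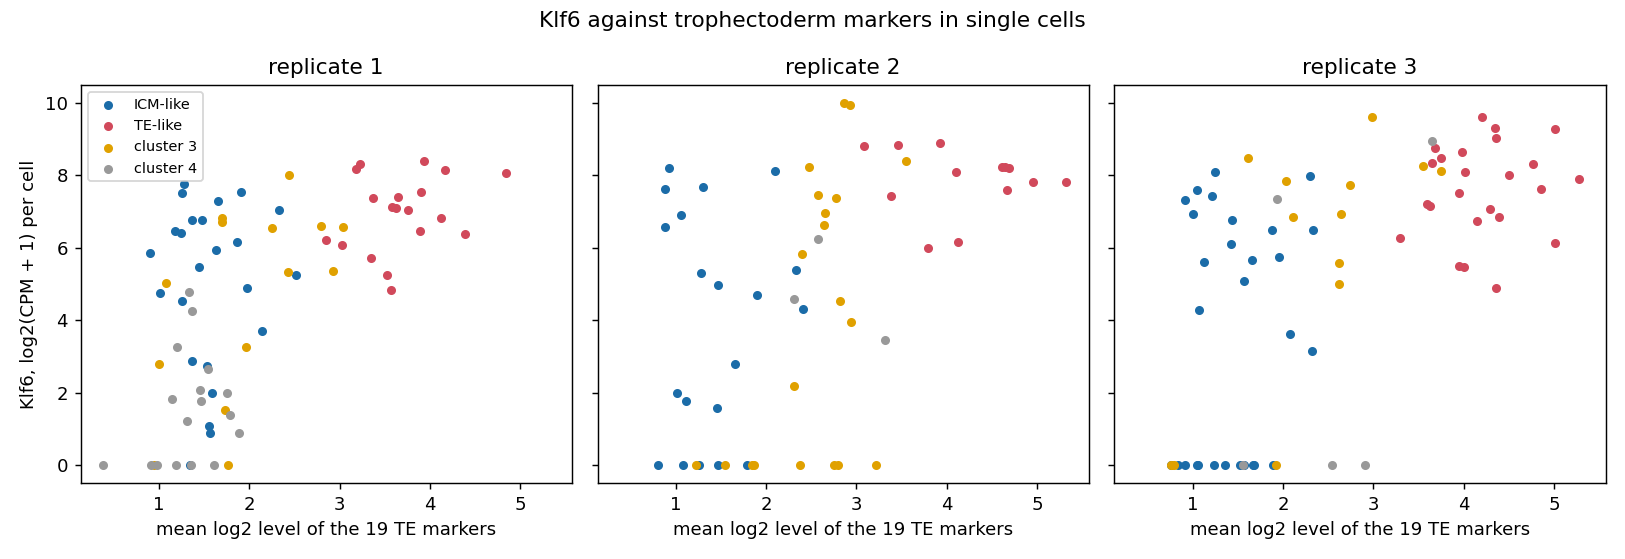
Klf6 in single cells with 50000 or more counts, as log2(CPM + 1) (vertical axis), against the mean log2 level of 19 TE markers (horizontal axis), in 1 panel for each library. Each point is 1 cell, coloured by class. TE-like cells lie at the upper right, ICM-like cells at low TE marker levels range from 0 to high Klf6, and cluster 3 extends from cells without a Klf6 count to cells at TE-like levels.

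Cluster 4 held 20, 5 and 11 cells in replicates 1, 2 and 3, and its KLF levels scattered widely. Klf5 averaged 232.7 ± 193.6 CPM (SD, n = 3 libraries), Klf9 131.3 ± 161.8, Klf13 102.1 ± 75.0, Klf6 50.0 ± 56.3 and Klf4 12.7 ± 16.9 CPM. Some of these means rested on 1 cell, which gave 97.5% of the Klf9 counts in replicate 2 and 77.1% of the Klf13 counts in replicate 1. Replicate 1 was low in Klf5 (11.2 CPM) and Klf6 (3.24 CPM), although its cells held 9880344 of the counts of cluster 4, with a median total of 256819 and up to 1553733, against 378359 and 559902 counts in replicates 2 and 3. In the 2 libraries with at least 8 cells of cluster 4, its summed cumulus markers reached 1134 CPM and its oocyte markers 494.7 CPM. Cluster 4 entered no test.

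Joint detection in single cells was read after thinning to an equal total count, which does not make the number of molecules sampled equal if counts are reads. Of thinned TE-like cells, 54 of 56 held both Klf5 and Klf6, against 39 of 74 ICM-like cells and 29 of 47 cells of cluster 3. Both Klf4 and Klf6 were counted in 27 of 74 ICM-like cells, Klf4 without Klf6 in 10, Klf6 without Klf4 in 17 and neither in 20. Of 56 TE-like cells, 8 held both, 47 held Klf6 without Klf4, and 1 held neither. Klf6 was missing from only that 1 cell, so Klf4 without Klf6 could hardly occur there. The pluripotency pair Klf2 and Klf4 was counted together in 34 of 74 ICM-like and 7 of 56 TE-like cells. Klf9 and Klf13 were counted together at like shares in both, in 56 of 74 (75.7%) and 41 of 56 (73.2%) cells. The mean number of the 10 genes counted in a thinned cell was 4.80 ± 0.286 in ICM-like, 5.24 ± 0.737 in TE-like and 4.29 ± 0.842 in cluster 3 cells (SD, n = 3 libraries). Cells of 1 library are not replicates, and these shares carry no test. Nor were the joint shares set against those that detection of each gene alone would give, so they do not show joint expression.

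Levels of the members moved together only weakly from cell to cell. Over the 45 pairs of the 10 genes, the mean over libraries of Spearman's rho had a median of 0.04 in ICM-like cells (-0.22 to 0.28) and of 0.00318 in TE-like cells (-0.32 to 0.37). In TE-like cells 2 pairs lay above 0.3, Klf5 with Klf6 (0.40, 0.63 and 0.07 in replicates 1, 2 and 3, over 19, 13 and 24 cells) and Klf4 with Klf10 (0.35, 0.41 and 0.32). After thinning the mean for Klf5 with Klf6 was 0.20, and Klf4 with Klf10 had no such value, since Klf4 was counted in 0 of 24 thinned TE-like cells of replicate 3. Klf4 with Klf5 in TE-like cells was below -0.3 on average but not in every library (-0.50, -0.46 and 0.01). In cluster 3 (14, 20 and 13 cells) 2 pairs had a mean below -0.3 and none had a mean above 0.3. They were Klf5 with Klf10 (-0.28, -0.46 and -0.49) and Klf4 with Klf6 (-0.62, -0.04 and -0.29). After thinning their means were -0.37 and -0.21. Pairs with Klf16 had no mean there. In these sparse counts such values are descriptions only. Among ICM-like cells Klf4 was higher in those with more EPI than PrE markers (rho 0.58, 0.36 and 0.13). So were Klf2 (0.61, 0.20 and 0.45) and Klf10 (0.47, 0.03 and 0.31). Mean rho was also positive for Klf16 (0.28), Klf9 (0.21) and Klf17 (0.18), each below 0 in replicate 1 or 2. It was 0.07, 0.01 and 0.08 for Klf5, Klf7 and Klf13, and -0.05 and -0.03 for Klf3 and Klf6.

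**Figure D5:**
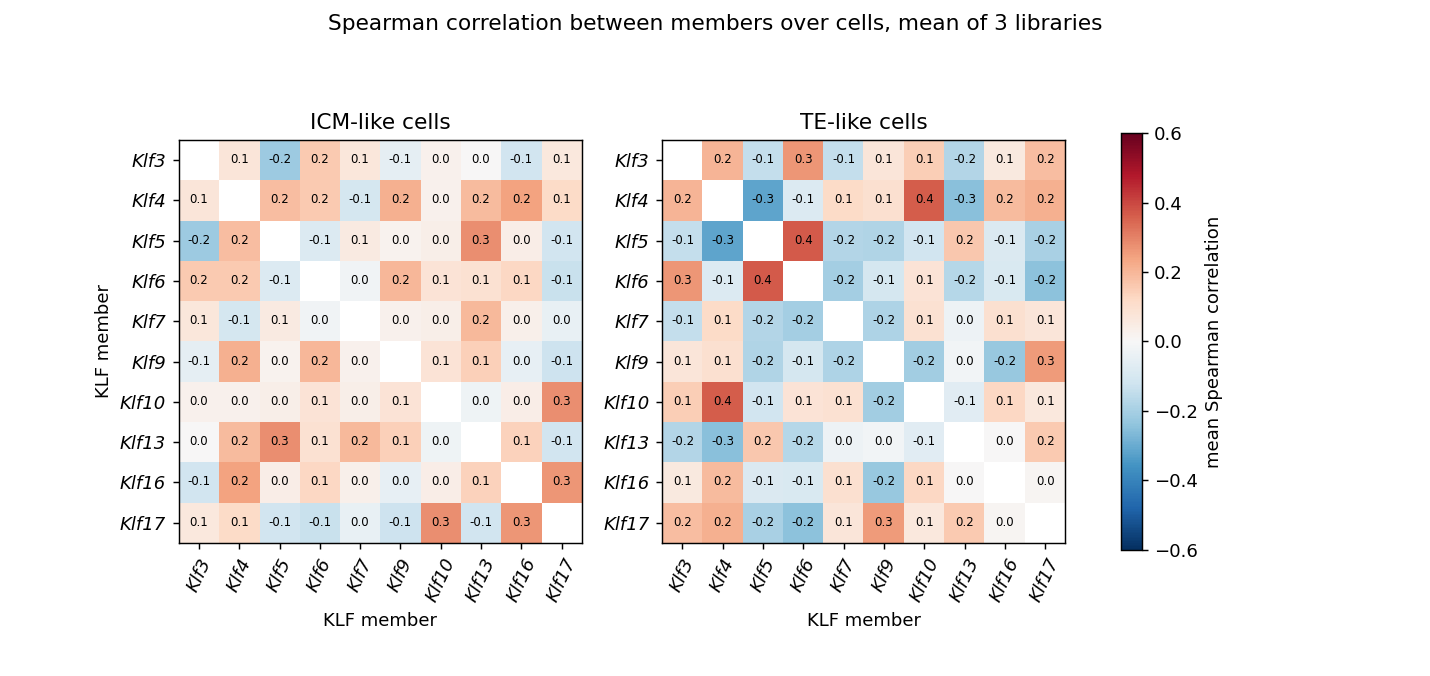
Mean over 3 libraries of Spearman's rho between each pair of the 10 KLF genes, over ICM-like cells (left) and TE-like cells (right) with 50000 or more counts. Colour runs from blue (-0.6) to red (0.6) and numbers give rho to 1 decimal. Most pairs lie near 0, and the highest in TE-like cells are Klf5 with Klf6 and Klf4 with Klf10.

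The genes whose levels followed a member most closely over all cells were sought among 6277 genes with a count in at least 50% of the cells of each library, for the 4 members that met the same rule. For Klf6 they were Tagln2 (mean rho 0.61), Akr1b8 (0.61) and Elf3 (0.60), against a 99th percentile of 0.47 over all genes. For Klf5 they were Krt8, a TE keratin used in the clustering (0.52), Lrba (0.51) and Ap2a2 (0.51). The closest for Klf9, Ubxn2a (0.33), and for Klf13, Nucks1 (0.29), were weaker. The correlations run over 74, 56 and 72 cells of replicates 1, 2 and 3, which share library and depth. All classes were pooled, so differences between classes enter these values, and correlations within a class were not sought. Klf6 against the mean of the TE markers had a mean rho of 0.55 over all cells. Within TE-like cells it was 0.06, within ICM-like cells 0.01 and within cluster 3 0.51.

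Other genes of the KLF system were read from 6 lists, each given for TE-like over ICM-like cells by edgeR with Benjamini-Hochberg adjustment. Over all 11924 genes tested, 2.11% were called higher and 0.855% lower, and 17.2% passed at an unadjusted p under 0.05. DESeq2 called 1549 genes in either direction, against 354 by edgeR, so the edgeR shares are no background for the DESeq2 counts below. The share of all genes called by DESeq2, and its split by direction, are not given here. Of 7 further Klf genes 5 were measured and 1, Klf2, was lower, with a median log2 fold change of 0.03. Of the SP genes, relatives of the KLF family with the same type of zinc fingers, 3 of 9 were measured and none was called by edgeR or DESeq2, or at an unadjusted p under 0.05. All 11 cofactors bound by KLF proteins were measured, of which 3 passed at an unadjusted p under 0.05, DESeq2 called 1 higher and 1 lower, and edgeR called 1 lower: the histone deacetylase Hdac1, at 570.5, 896.1 and 552.7 CPM in ICM-like and 276.9, 313.6 and 220.4 CPM in the TE-like class (replicates 1, 2 and 3) (log2 fold change -1.26, SE 0.19, adjusted p = 0.0194, edgeR). Its libraries did not overlap.

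Of 15 naive pluripotency partners, 14 were measured, 3 were lower, none was higher, and the median log2 fold change was -0.72. At an unadjusted p under 0.05 by edgeR, 11 of the 14 passed, against 17.2% of all genes. DESeq2, which called 1549 genes in all, called 6 lower and 1 higher. The classes were drawn in part on ICM and EPI markers. Lower levels of genes that go with those markers are therefore no independent finding. The 3 lower by edgeR were Esrrb, a nuclear receptor of naive cells (-2.64, SE 0.40, adjusted p = 0.0196, edgeR), Socs3, a feedback inhibitor of LIF signalling (-4.46, SE 0.79, adjusted p = 0.0335), and Tet1, a 5-methylcytosine dioxygenase (-1.41, SE 0.27, adjusted p = 0.0430). Esrrb was at 43.7, 55.6 and 45.4 CPM in ICM-like and 8.37, 6.95 and 7.24 CPM in the TE-like class (replicates 1, 2 and 3). None of 10 regulators of KLF protein turnover and none of 10 measured genes of TGF beta and SMAD signalling was called by edgeR or DESeq2, or at an unadjusted p under 0.05, and their medians were -0.00649 and 0.12. As with Klf6, the calls of Hdac1, Esrrb, Socs3 and Tet1 were lost without replicate 2, without replicate 3 and without the library block. That of Esrrb was also lost within barcodes 1 to 32 alone, and that of Socs3 in 3 more settings, with a log2 fold change of -2.38 at Leiden resolution 1.0.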

How the data were processed

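The deposited values are whole-number counts per gene and barcode for 3 libraries. Per the labels' protocols, cells were picked by hand and prepared with an optimized Smart-seq2 protocol with cell barcodes and molecular identifiers and capture of 3′ ends. CASAVA 1.8, HISAT2, HTSeq and mm10 appear in the submitters' processing notes. Not given in the sources used here are the annotation, the strand setting and whether identifiers were collapsed, so a count may be a read or a molecule, and depth limits cover counting error only.

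Barcodes with at least 2000 genes with a count were cells; no doublet caller was run, but an alternative left out cells over 2.5 times the median total of their class. Cells were clustered with scanpy 1.11.5 on the 51 of 53 markers that varied (10 components, 15 neighbours, Leiden resolution 0.5). Marker levels were log2 of counts scaled to the median total of a cell, with 1 added before the log. The mean of each library was subtracted per marker, and each marker was divided by its SD. A cluster was named when its marker score exceeded other cells by 0.25. Counts were summed per library and class (at least 8 cells), filtered by filterByExpr, scaled by TMM and tested with edgeR 4.0.16 (quasi-likelihood, library as a block because both classes come from the same libraries, Benjamini-Hochberg over all genes, threshold 0.05); DESeq2 1.42.0 and limma 3.58.1 were alternatives. Classes were drawn on the cells then tested, and p-values leave out that uncertainty. Fits were tested on simulated data, where many true changes were not called, so a gene that did not pass may still differ. Members and lists were chosen with earlier results of these data known. All 10 members, Klf2, up to 4 called genes of each list, and the 3 genes most correlated with a member were eligible to be named.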

Additional observations from a re-analysis of the deposited data

Results flagged for a closer look

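The 63 barcodes left out as cells held 319716 counts, of which 306 fell on the 10 KLF genes. In them Klf6 had 106 counts, Klf5 92, Klf13 83, Klf9 15 and Klf4 5. Each was above 3 counts, the depth limit for a gene at 0 counts, used here only to flag. Since a count may be a read, passing this limit is no test. Klf6 was counted in 9 of these barcodes, Klf5 in 13 and Klf13 in 10, and Klf4 in 1.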

How the results depend on the processing

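Of the 10 KLF genes, the 1 called between TE-like and ICM-like cells became 3 with DESeq2 and with limma on mean CPM (Klf4, Klf5 and Klf6), 2 without the low-count filter, with cells thinned to 50000 counts or without deep cells (Klf5 and Klf6), and 0 to 1 with single replicates left out. Without the replicate block it became 0, as did the count of called genes in each of the 3 comparisons. Called genes numbered 354 between TE-like and ICM-like cells, 1549 with DESeq2, 538 without the filter, 641 thinned, 579 without deep cells, 899 with limma, and 830, 77 and 0 without replicates 1, 2 and 3. Without those replicates, cluster 3 against ICM-like cells (28) gave 252, 24 and 0, with 0 to 1 KLF gene called, and cluster 3 against TE-like cells (179) gave 19, 37 and 342. The cause was not tested. Klf9 turned to -0.052 without replicate 2 and -0.149 with limma, and Klf17 to 0.145 without replicate 1, 0.581 without replicate 3 and 0.004 with cluster 3 counted as TE-like, an alternative added after seeing the data, while without the other replicates Klf9 ranged up to 0.394 and Klf17 down to -0.798. The other 8 members kept their direction in every fit run, but not all did in the 6 barcode sets, which were not fitted. TE-like cells were higher in 3 sets and lower in 3 for Klf3 and Klf7, and higher in 2 and lower in 3 for Klf16. Klf4 and Klf5 kept their direction in all 6 sets, and Klf6, Klf10 and Klf13 in 5. Thinning to 20000 in place of 50000 counts moved 12 of 20 shares of cells by more than 1 SD, Klf4 to 33.2% of ICM-like and 16.5% of TE-like cells. Thinned counts gave no fit for Klf16 and Klf17. One TE-like cluster formed, and ICM-like sub-clusters did not lean to EPI or PrE, so comparisons between such clusters were not run.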
